A study of Mus musculus with 292 samples.

Results

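The genes Usp18, Ifit1, Ifit3, Isg15, Irf7, Rsad2, Oasl2, Ifi44 and Rtp4 are switched on by type I interferon. They were chosen by symbol, and all 9 were present among the 48795 gene identifiers of each deposited count table. Messenger RNA was measured in 292 libraries of 4 tissues from male C57BL/6J mice, wild type and 26 weeks of age, with no treatment or other genotype among the groups. The tissues were cortex and striatum of the right hemisphere, hypothalamus and liver, with 78, 60, 77 and 77 libraries. Animals were sampled at 13 time points, one every 3 h over 36 h, here pooled by zeitgeber time (ZT, which counts hours from lights-on by convention) into 8 groups. The 5 groups from ZT0 to ZT12 hold mice of both cycles, while ZT15, ZT18 and ZT21 hold mice of the first cycle alone. Group sizes ran from 6 to 12 libraries, except in striatum, where ZT15 had 2 and ZT18 had 4. Each library of a tissue carried its own mouse code, apart from which the labels name no culture, litter or cage.

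Type I interferon binds a receptor made of IFNAR1 and IFNAR2, and Janus kinases then activate transcription factors. Among these, STAT2 joins IRF9 in a complex that binds the interferon-stimulated response element (ISRE) in front of antiviral genes. Type II interferon acts through a different element named GAS. In liver and brain the pathway is best known from viral infection, and a low level of its target genes is present without infection.

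Total gene counts per library ran from 28.3 to 40.5 M (M for mega) in cortex, 11.7 to 43.4 M in striatum, 29.2 to 50.01 M in hypothalamus and 11.7 to 41.9 M in liver. Alb, the hepatocyte gene for albumin, was at 58500 CPM (the count scaled to a common library total) or more in liver, and Slc17a7, a marker of cortical excitatory neurons, at 876 CPM or more in cortex, in every library but those named next. There were 7 libraries that stood apart in such markers or in depth. In cortex, Slc17a7 was at only 4.13 CPM in ZT0 replicate 1 and at 13.1 CPM in ZT9 replicate 9. Striatum ZT21 replicate 3 held 845 CPM of the cerebellar marker Gabra6. Hypothalamus ZT0 replicate 9 and ZT9 replicate 9 held 29020 and 20820 CPM of the pituitary gene Gh. In striatum ZT3 replicate 5 and liver ZT18 replicate 4, the ribosomal RNA-like model Gm42418 took 17.6% and 62.3% of the counts, at totals of 11.7 M each. Every count of called genes was repeated without these 7 libraries, and calls of members that changed are given where they occur. Outside these 7, striatum still varied widely in its markers. Drd1, a marker of striatal neurons, ran from 4.69 to 391 CPM there (median 97.0), against a median of 60.1 CPM in cortex. Slc17a7 reached 212 CPM in striatum. The part of this spread in the striatum results was not tested.

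On GRCm38, with gene positions of GENCODE release M21, the members lie on 8 chromosomes. Ifit1 (chr19:34640871-34650009) and Ifit3 (chr19:34583531-34588731) are neighbours on the plus strand and encode proteins that bind viral RNA or partner such proteins. Usp18 (chr6:121245906-121270917, plus strand) encodes the protease that strips ISG15 from proteins and dampens the interferon receptor. Isg15 (chr4:156199424-156200818, minus strand) encodes that ubiquitin-like modifier. Irf7 (chr7:141262706-141266481, minus strand) encodes the transcription factor that drives interferon alpha genes. Rsad2 (chr12:26442746-26456452, minus strand) encodes viperin, an enzyme that makes an antiviral nucleotide. Oasl2 (chr5:114896936-114912234, plus strand) belongs to the oligoadenylate synthetase family. Ifi44 (chr3:151730922-151749960, minus strand) encodes an interferon-induced protein. Rtp4 (chr16:23520291-23614222, plus strand) encodes a receptor transporter protein. All 9 are annotated as protein-coding, and the counts cover their exons.

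Some reads cannot be placed on one gene alone. Of the stretches of 50 bases in Ifit3, 51.2% also occur in other genes, most often in its neighbour copy Ifit3b, so Ifit3 values may hold or lack reads of that copy. The share was 7.13% in Ifit1 (most often with Ifit1bl2) and 3.96% in Isg15. In Rtp4, 13.9% of exonic bases overlap the model Gm45338 on the same strand. In Usp18 and Irf7, 4.44% and 1.19% overlap a gene on the opposite strand, and the strand setting of the counts is not given in the sources used here.

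RefSeq promoter windows of GRCm38.p6, from 250 bases before to 50 after the gene start, were matched for 7 of the 9 members, all but Usp18 and Rtp4. The core of the ISRE, read as GAAA, any 2 bases and GAAA on either strand, was found in 4 of these 7 windows and in 3.44% of 32851 windows. It began 104 and 85 bases before the start of Ifit1, 156 and 122 before Ifit3 and 120 before Rsad2. In Isg15 it began 78, 72 and 66 bases before the start, in 3 matches that overlap one another. The GAS motif TTCNNNGAA was in none of the 7 windows and in 8.3% of all windows. A match describes letters, not a bound site. The windows of the 4 genes with the core are shown with the core in capitals, and that of Irf7 is shown because it holds none. Windows of Oasl2 and Ifi44 also held none. They lie at chr19:34640639-34640938 (Ifit1, plus strand), chr19:34583279-34583578 (Ifit3, plus), chr4:156200769-156201068 (Isg15, minus), chr12:26456403-26456702 (Rsad2, minus) and chr7:141266375-141266674 (Irf7, minus).
Ifit1: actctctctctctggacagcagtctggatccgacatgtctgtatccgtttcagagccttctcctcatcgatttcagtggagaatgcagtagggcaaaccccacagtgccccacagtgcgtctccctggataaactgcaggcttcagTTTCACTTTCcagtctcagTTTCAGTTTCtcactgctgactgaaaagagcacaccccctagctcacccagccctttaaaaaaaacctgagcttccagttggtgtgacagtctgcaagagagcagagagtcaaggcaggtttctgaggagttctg
Ifit3: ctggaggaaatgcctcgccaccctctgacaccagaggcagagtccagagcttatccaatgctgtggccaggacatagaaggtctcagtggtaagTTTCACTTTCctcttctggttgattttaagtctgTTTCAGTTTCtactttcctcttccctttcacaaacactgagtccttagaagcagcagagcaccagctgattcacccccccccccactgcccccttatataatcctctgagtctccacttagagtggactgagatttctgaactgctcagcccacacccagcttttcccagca
Isg15: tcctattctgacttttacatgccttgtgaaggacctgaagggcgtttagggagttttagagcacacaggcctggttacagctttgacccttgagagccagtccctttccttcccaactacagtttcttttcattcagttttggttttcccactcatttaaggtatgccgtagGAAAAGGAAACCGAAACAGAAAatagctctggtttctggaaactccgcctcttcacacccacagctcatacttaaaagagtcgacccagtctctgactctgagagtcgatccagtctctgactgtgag
Rsad2: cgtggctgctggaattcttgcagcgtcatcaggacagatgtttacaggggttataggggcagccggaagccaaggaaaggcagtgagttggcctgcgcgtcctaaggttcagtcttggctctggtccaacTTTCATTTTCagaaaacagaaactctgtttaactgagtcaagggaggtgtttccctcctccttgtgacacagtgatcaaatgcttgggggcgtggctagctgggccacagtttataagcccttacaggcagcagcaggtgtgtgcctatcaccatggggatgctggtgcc
Irf7: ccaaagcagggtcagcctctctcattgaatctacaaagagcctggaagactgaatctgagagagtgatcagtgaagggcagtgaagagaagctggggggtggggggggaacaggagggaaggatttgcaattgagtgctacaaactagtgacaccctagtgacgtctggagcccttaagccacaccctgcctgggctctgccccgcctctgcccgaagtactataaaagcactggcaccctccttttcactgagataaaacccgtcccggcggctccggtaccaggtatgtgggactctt

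In liver, transcripts of all 9 genes rose and fell over the day. Genes for antiviral effectors and for ISG15 and its protease were highest in the light phase, by convention ZT0 to ZT12, and lowest between ZT15 and ZT18, with fitted peak-to-trough ratios from 1.67-fold to 3.37-fold. Irf7 had a smaller swing of 1.43-fold and a later peak, at ZT11.4. The comparison asks whether a gene's level follows ZT. It fitted a cosine of 24 h to the counts and tested it with edgeR's quasi-likelihood test. A gene was called when its p, adjusted over all genes by Benjamini-Hochberg, was under 0.05. Of the 16159 genes tested in liver 72.8% were called, so the 9 of 9 members called are to be read against a high background. At a ratio of 1.5-fold or more, 8 of the 9 members and 27.9% of all genes were called. The median log2 ratio was 1.11 over the members and 0.38 over all genes tested.

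Values are given as CPM scaled by TMM factors, for the ZT groups with the highest and the lowest mean. Usp18 had 5.12, 8.59 and 13.03 CPM (lowest, median and highest of 12 libraries) at ZT6. At ZT18 it had 1.58, 3.05 and 3.95 CPM (6 libraries). All 12 libraries at ZT6 were above all 6 at ZT18, and the fitted log2 ratio was 1.39 ± 0.12 (SE), adjusted p 1.279e-15, with a peak at ZT5.95 ± 0.29 h. Its substrate modifier Isg15 followed, with 5.58, 7.61 and 9.51 CPM at ZT6. The 6 libraries at ZT18 held 0, 3.92 and 4.49 CPM, where the 0 is the library with 62.3% Gm42418. These groups did not overlap either, and the fitted log2 ratio was 1.11 ± 0.11 with a peak at ZT5.004 ± 0.34 h.

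Rsad2 had the widest swing of the 9 in liver and the earliest peak, at ZT2.94 ± 0.28 h. It had 8.66, 12.99 and 19 CPM at ZT3 (12 libraries) and 2.34, 3.64 and 4.62 CPM at ZT15 (6 libraries), with no overlap. The log2 ratio was 1.75 ± 0.13, adjusted p 8.818e-20. Among the RNA-binding effectors, Ifit1 had 4.94, 9.14 and 16.8 CPM at ZT6 and 2.29, 3.68 and 4.22 CPM at ZT18, again with every ZT6 library above every ZT18 library. Its log2 ratio was 1.27 ± 0.14, with a peak at ZT4.99 ± 0.37 h. Ifit3 had 6.91, 9.50 and 17.2 CPM at ZT6 and 1.58, 4.77 and 6.51 CPM at ZT18, or 1.11 ± 0.13 on the log2 scale, and peaked at ZT5.90 ± 0.39 h. Its copy Ifit3b gave 0.94 ± 0.13 with a peak at ZT5.12. Both values may hold or lack reads shared by the 2 copies.

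The remaining members changed less, and their extreme groups overlapped. Oasl2 was at a median of 5.24 CPM at ZT6 and 2.81 CPM at ZT18, with a fitted ratio of 0.81 ± 0.11 (log2) that peaked at ZT6.12 ± 0.46 h. Rtp4 was at 13.09 and 8.16 CPM at the same times, with 0.82 ± 0.090 and a peak at ZT5.17 ± 0.37 h. Ifi44 was at 3.17 CPM at ZT6 and 1.95 CPM at ZT15, with 0.74 ± 0.11 and a peak at ZT6.66 ± 0.50 h. In 9 to 11 of the 12 libraries of the higher group, each of these 3 genes was above the whole lower group. Irf7, the transcription factor, was at 24.9, 33.5 and 39.0 CPM at ZT12 and at 18.6, 21.6 and 26.95 CPM at ZT21. Its log2 ratio was 0.52 ± 0.077, adjusted p 5.296e-08, and its peak at ZT11.4 ± 0.63 h came later than those of Usp18 (ZT5.95) and Oasl2 (ZT6.12).

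**Figure D1:**
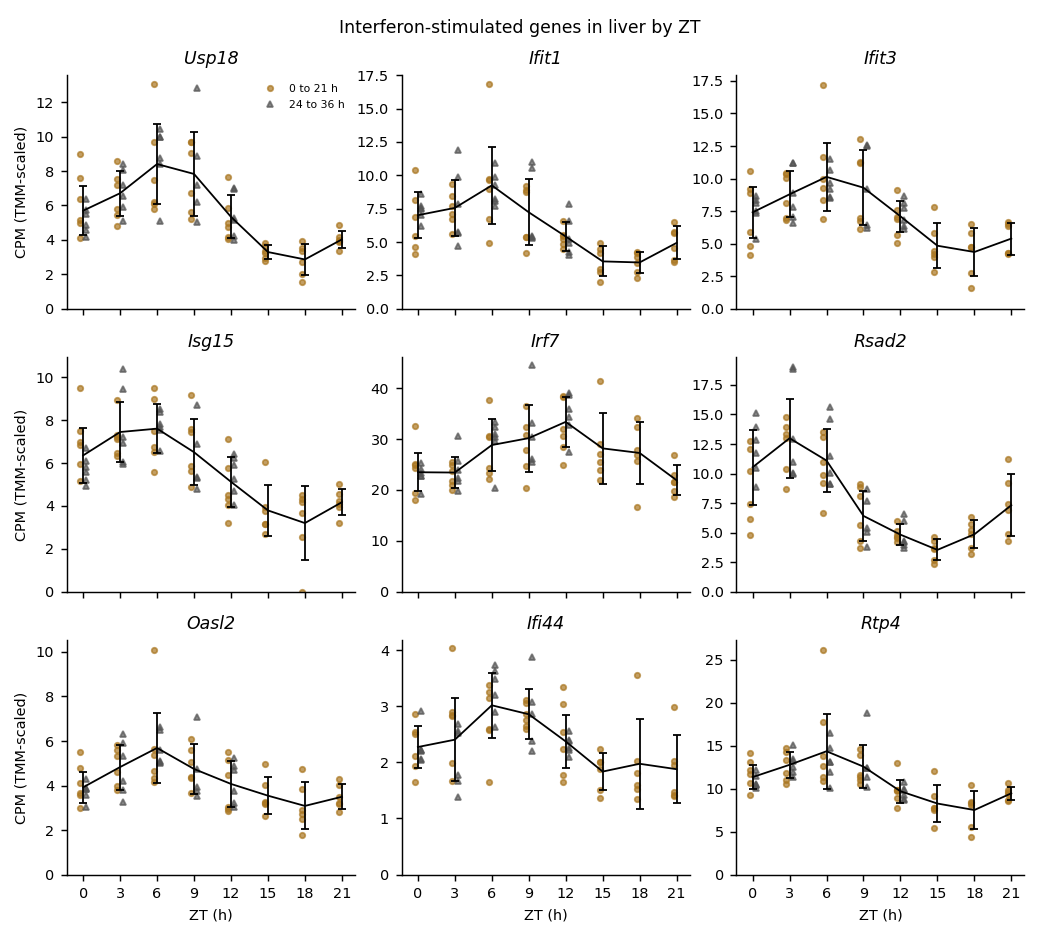
Level of each gene in liver, in TMM-scaled CPM (y axis, from 0), against ZT in hours (x axis). Circles are single libraries of the first 21 h and triangles those of 24 to 36 h, the line joins group means and bars are SD. Usp18, Ifit1, Ifit3, Isg15 and Rsad2 are low at ZT15 and ZT18, whereas Irf7 is highest at ZT12.

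Both cycles gave similar means in liver. Usp18 was at a mean of 8.04 ± 2.83 CPM (SD, n = 6) at 6 h and 8.77 ± 1.95 CPM (n = 6) at 30 h. Rsad2 was at 12.35 ± 2.35 CPM at 3 h and 13.6 ± 4.24 CPM at 27 h, both n = 6. At the 5 ZT groups sampled in both cycles, with ZT as a factor, 0 of the 9 members were called between cycles in liver, hypothalamus or striatum by edgeR. Over all genes, 0.0% were called in liver, 0.0% in hypothalamus and 2.92% in striatum, and no member had an unadjusted p under 0.05 in these 3 tissues. In cortex Rsad2 alone was called, lower in the second cycle by a log2 difference of -0.20 ± 0.063, adjusted p 0.0396, where 6.82% of genes were called and 2.23% lower. Without a filter on low counts its adjusted p was 0.0718. Without the libraries that stood apart, 16.25% of genes were called in cortex and 0.0% in striatum, and the members' counts stayed at 1 and 0.

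Other genes of the pathway followed ZT in liver as well. Of 35 further interferon-stimulated genes tested, 29 were called, with a median log2 ratio of 0.52. Cmpk2, which lies next to Rsad2 and makes nucleotides for it, gave 1.55 ± 0.10 with a peak at ZT1.89. Xaf1 gave 1.13 ± 0.11 (ZT5.59), the RNA sensor Ifih1 0.65 ± 0.062 (ZT6.26) and its relative Dhx58 0.80 ± 0.080 (ZT2.50). Among 16 receptors and signalling genes 11 were called. Stat2 peaked at ZT20.2 with a log2 ratio of 0.84 ± 0.073, while its partner Irf9 peaked at ZT4.05 with 0.44 ± 0.054. Of 14 nucleic acid sensing genes tested 12 were called, led by Tbk1, Tlr3, Irf5 and Mavs, and of 16 type II interferon and antigen presentation genes 9 were called, led by Tap1 and Psmb9. Of all genes 72.8% were called, so these shares are no result about the lists.

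The interferons themselves were scarcely measured. None of the 10 ligand genes on the list passed the filter on low counts in any tissue. Ifna1, Ifna4, Ifna5 and Ifnl2 had 0 counts in all 292 libraries, and Ifnb1 had 3 counts summed over the 77 liver libraries. Ifng reached at most 5 counts in a liver library and 8 in a hypothalamus library. The receptor genes Ifnar1 and Ifnar2 were at medians of 34.8 and 42.7 CPM in liver.

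Markers of other liver cells were measured beside the rhythm. Both macrophage genes Clec4f and Vsig4, of 4 on the Kupffer cell list, were called, with log2 ratios of 0.54 ± 0.13 and 0.54 ± 0.14 and peaks at ZT3.33 and ZT3.28. The summed level of the 4 genes had group medians from 50.04 CPM at ZT9 to 83.2 CPM at ZT3. The B cell markers Cd79a and Ms4a1 were called, Cd79a with 1.87 ± 0.19 and a peak at ZT5.04 and Ms4a1 with 1.56 ± 0.19 at ZT4.60. The T and NK cell list had 0 of 4 called. Of the neutrophil markers S100a8 and S100a9 were called and peaked at ZT5.15 and ZT5.21, with a summed level of 110.5 CPM in 1 ZT6 library. Of all genes tested in liver 72.8% were called, so the calls of Kupffer cell, B cell and neutrophil markers are no result about these cells. In whole tissue, fewer cells of a type and less RNA per cell cannot be told apart, and the part of these cells in the course of the 9 genes was not tested.

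In cortex the same genes moved far less, and not all of them passed the test. Ifit3, Rsad2, Oasl2, Isg15, Ifi44 and Irf7 were called, 6 of 9, where 43.7% of the 19564 genes tested were called. At a ratio of 1.5-fold or more, 0 of the 9 members and 7.98% of all genes were called by edgeR. The median log2 ratio was 0.40 over the members and 0.19 over all genes. Usp18, Ifit1 and Rtp4 were not called, with adjusted p of 0.308, 0.0591 and 0.524.

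Rsad2 in cortex had 1.99, 2.38 and 2.81 CPM (lowest, median and highest of 12) at ZT3 and 1.06, 1.34 and 2.24 CPM (6 libraries) at ZT15. Its log2 ratio was 0.54 ± 0.093, adjusted p 6.767e-06, and its peak at ZT3.06 ± 0.65 h lay within the errors of that in liver. Ifit3 had 6.49, 7.26 and 8.28 CPM at ZT12 and 4.17, 4.85 and 6.40 CPM at ZT0, and these groups did not overlap. Its log2 ratio was 0.49 ± 0.063, adjusted p 7.406e-09, with a peak at ZT11.8 ± 0.56 h, against ZT5.90 ± 0.39 h in liver. Usp18 in cortex stayed between 0.41 and 1.79 CPM in all 78 libraries, and its log2 ratio was 0.22 ± 0.13. Oasl2 gave 0.45 ± 0.082 (peak ZT6.30), Isg15 0.42 ± 0.13 (ZT2.85), Ifi44 0.40 ± 0.13 (ZT1.92) and Irf7 0.26 ± 0.089 (ZT3.81). The calls of Isg15, Irf7 and Ifi44 were lost with ZT as a factor and in the first cycle alone, which left 3 of 9. Those of Ifi44 (adjusted p 0.0545) and Irf7 (adjusted p 0.0700) were also lost without a filter on low counts.

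**Figure D2:**
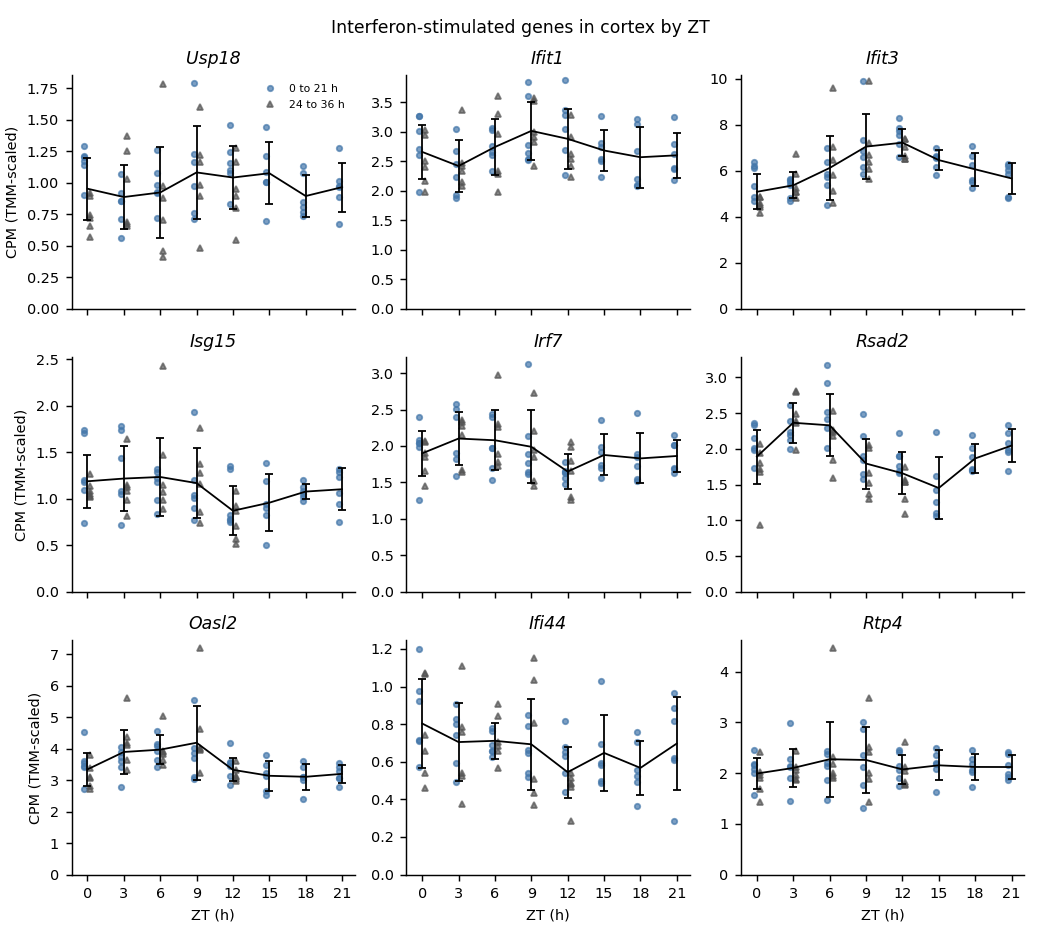
Level of each gene in cortex, in TMM-scaled CPM (y axis, from 0), against ZT in hours (x axis), with circles and triangles for libraries of the first and second cycle, lines for group means and bars for SD. Ifit3 rises to ZT12 and Rsad2 falls to ZT15, whereas Usp18 shows wide scatter within every group.

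In striatum and hypothalamus Ifit3 was the member called, 1 of 9 in each, where 5.7% and 24.3% of genes were called. In striatum Ifit3 had 9.85, 11.2 and 16.6 CPM at ZT12 (11 libraries) and 4.83, 5.99 and 9.37 CPM at ZT0 (9 libraries), with no overlap. The log2 ratio was 0.73 ± 0.11, adjusted p 1.592e-05, with a peak at ZT12.3 ± 0.66 h. In hypothalamus it had 11.7, 21.7 and 29.55 CPM at ZT15 (6 libraries) and 7.80, 10.8 and 17.7 CPM at ZT0 (12 libraries), with overlap. There the log2 ratio was 0.82 ± 0.16, adjusted p 0.000221, with a peak at ZT13.97 ± 0.80 h. The copy Ifit3b was called in the same 3 brain tissues, with peaks at ZT12.5, ZT12.85 and ZT13.8. Besides Ifit3, 4 members in striatum and 1 in hypothalamus had an unadjusted p under 0.05. Without the hypothalamus library highest in Usp18, described further on, Ifit1 (0.58, adjusted p 0.0466, peak ZT18.8) and Isg15 (0.79, adjusted p 0.0264, peak ZT20.25) were called too by edgeR. The next highest libraries, of ZT21, ZT18 and ZT15, were still in that fit. Without the 4 libraries highest in Usp18, Ifit1 (0.034, adjusted p 0.982) and Isg15 (0.36, adjusted p 0.267) were not called. In that fit Rsad2 (0.56, adjusted p 0.000728) and Ifi44 (0.59, adjusted p 0.0262) were called beside Ifit3.

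Further interferon-stimulated genes gave 19 called of 34 tested in cortex, 4 of 35 in striatum and 5 of 35 in hypothalamus, and the same 3 tissues gave 6, 1 and 1 of 16 receptors and signalling genes. Over all genes 43.7%, 5.7% and 24.3% were called, so in hypothalamus both lists lie below that share. Irf9, the partner of STAT2, was called in each, with log2 ratios of 0.70 ± 0.071, 0.57 ± 0.10 and 0.37 ± 0.069 and peaks at ZT19.2, ZT19.9 and ZT19.0. Irf3, which turns on interferon genes after nucleic acid sensing, was also called in each, at ZT20.4, ZT20.2 and ZT19.98. In liver, Irf9 peaked at ZT4.05. Transcripts of vessel wall markers were called beside them in the brain. Endothelial markers were called in 4 of 4, 3 of 4 and 4 of 4 cases in cortex, striatum and hypothalamus, led by Cldn5 with log2 ratios of 0.94, 1.03 and 0.99. Microglia markers were called in 2 of 5, 0 of 5 and 1 of 5, near the shares of all genes, so these counts are no result about microglia. Their part in the members' course was not tested.

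**Figure D3:**
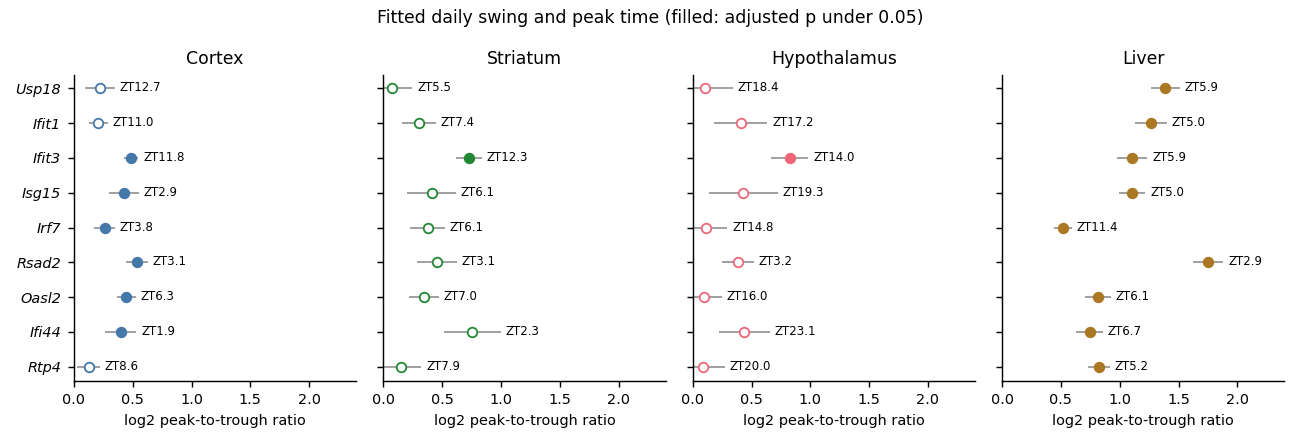
Fitted log2 peak-to-trough ratio of each gene (x axis) in 4 tissues, one panel each, with lines of 1 SE and the fitted peak in ZT beside each point. Filled points had an adjusted p under 0.05, as all 9 did in liver, 6 in cortex and Ifit3 alone in striatum and hypothalamus.

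The difference in rhythm between tissues was tested itself, through the interaction of tissue with the cosine and sine of ZT, with each mouse as a block. Between liver and cortex all 9 members differed, with adjusted p from 5.779e-12 (Ifit1) to 0.0242 (Oasl2), where 48.9% of genes differed. Between liver and striatum all 9 differed, with adjusted p from 4.349e-08 (Ifit3) to 0.0209 (Oasl2), where 24.6% of genes did. Between liver and hypothalamus all 9 differed, with adjusted p from 3.722e-10 (Ifit3) to 0.0387 (Irf7), where 45.2% did. Between the brain tissues 0 of 9 members were called for striatum against cortex, hypothalamus against cortex or hypothalamus against striatum. There 0.0407%, 6.33% and 0.0134% of genes were called by edgeR, and 0, 2 and 0 members had an unadjusted p under 0.05.

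Next, the members were compared with one another across mice of one time point. The slope of each gene's log2 level on log2 CPM of Usp18 was fitted with the 13 time points as a factor, so that ZT could not set it. A slope of 1 means that a gene changes in proportion to Usp18. In liver 7 of the other 8 members were called, all with positive slopes, where 9.07% of genes were called and 5.12% with a positive slope. The median slope was 0.52 over the 8 and 0.0016 over all genes. Ifit1 had the steepest slope, 0.84 ± 0.099, adjusted p 7.553e-09, followed by Ifit3 with 0.79 ± 0.094 and Rtp4 with 0.59 ± 0.060. Ifi44, with 0.30 ± 0.11, had an adjusted p of 0.0567, and of 0.0317 without the library of liver that stood apart.

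In hypothalamus all 8 had positive slopes and were called. There 50.6% of all genes were called and 27.5% with a positive slope, so the count is to be read against a high background. The median slope was 0.68 over the 8 and 0.012 over all genes. Isg15 had 1.03 ± 0.067, Ifit1 0.88 ± 0.044 and Ifi44 0.77 ± 0.082, and the smallest slope was that of Rsad2 with 0.44 ± 0.056. By p, Ifit1, Ifit3, Isg15 and Irf7 held ranks 1 to 4 among all genes tested. Without the 4 libraries highest in Usp18 all 8 were still called, with slopes from 0.38 (Rsad2) to 0.84 (Isg15), and 26.4% of genes were called.

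In cortex 7 of 8 were called, all positive, where 22.1% of genes were called and 13% with a positive slope. Isg15 had 0.54 ± 0.11, Ifi44 0.43 ± 0.12 and Rtp4 0.43 ± 0.076, while Rsad2 had 0.034 ± 0.079, adjusted p 0.795. In striatum 0 of 8 were called by edgeR, where 0.0277% of genes were called, and 3 had an unadjusted p under 0.05. All 8 slopes were positive there, from 0.16 (Ifit3) to 0.47 (Ifi44). Without the striatum library highest in Usp18, Irf7 was called, with a slope of 0.47 and adjusted p 0.0456. With Isg15 as the index in place of Usp18, 5 of 8 were called in striatum, where 49.3% of genes were.

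The genes outside the 9 with the smallest p and a positive slope on Usp18 differed by tissue. In hypothalamus they were Parp9 (0.41 ± 0.030), the chemokine gene Cxcl10 (2.13 ± 0.17), Bst2, which tethers virus particles (0.80 ± 0.065), Zbp1, a sensor of nucleic acids (1.65 ± 0.13), and the GTPase gene Iigp1 (0.81 ± 0.067). In liver they were Apol9a (0.87 ± 0.083), Apol9b (0.63 ± 0.071), the guanylate-binding protein gene Gbp6 (1.06 ± 0.14), Lgals3bp (0.36 ± 0.049) and Trim12c (0.43 ± 0.059). In cortex they were Ly6a (0.45 ± 0.062), Ly6c1 (0.39 ± 0.058), Ifitm3, which blocks virus entry (0.53 ± 0.083), Snhg1 (0.28 ± 0.045) and B2m, a subunit of MHC class I (0.37 ± 0.059). In striatum they were Trabd2b (2.34 ± 0.43), Pax3 (5.03 ± 0.95), Rbms2 (0.45 ± 0.088), 4930447F24Rik (4.32 ± 0.88) and Dao (3.73 ± 0.77). None of these is on a list of interferon genes here. The striatum fit held ZT21 replicate 3, the library with 845 CPM of the cerebellar marker Gabra6, which was among the 4 highest in Usp18 there. The part of that library in these slopes was not tested. Likeness is the slope over the 77, 77, 78 and 60 libraries of these tissues within time points.

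Of the further interferon-stimulated genes, 33 of 35 had a called positive slope on Usp18 in hypothalamus, 23 of 35 in liver, 13 of 34 in cortex and 0 of 35 in striatum. Over all genes, 27.5%, 5.12%, 13% and 0.0277% had a called positive slope in these tissues. In liver 1 was called with a negative slope. Type II interferon and antigen presentation genes gave 16 of 16, 6 of 16, 7 of 14 and 0 of 16, all positive. Markers of immune cells moved with Usp18 too. Microglia markers were called with a positive slope in 4 of 5 cases in cortex (median slope 0.15) and 4 of 5 in hypothalamus (0.077). The T cell and NK cell genes Cd8a and Nkg7, the 2 of 4 tested in hypothalamus, had slopes of 0.63 ± 0.18 and 0.80 ± 0.19. The plasmacytoid dendritic cell makes much interferon alpha. Of 3 genes listed for it, Siglech had 0.13 ± 0.029 and Ccr9 0.51 ± 0.14 in hypothalamus. In cortex Siglech had 0.16 ± 0.050 and was called, and Ccr9 had -0.0018 ± 0.25 and was not. The summed level of the 3 had medians of 15.5 CPM in hypothalamus and 17.7 CPM in cortex, against 0.38 CPM in liver. Summed microglia markers had medians of 167, 196 and 30.1 CPM in these tissues. The sum of the 3 is therefore not read as a number of plasmacytoid dendritic cells, and whether microglia held these transcripts in brain was not tested. These slopes are not assigned to a cell type, and which cells held these transcripts was not tested. The neutrophil marker S100a8 had a slope of 1.10 ± 0.28 in cortex, adjusted p 0.00363, steeper than that of any member there. Summed neutrophil markers were low in cortex, however, at a median of 0.37 CPM. They reached 2.94 CPM in 1 of the 4 cortex libraries highest in Usp18 and at most 1.58 CPM outside those 4. In hypothalamus the red cell gene Hbb-bs also moved with Usp18 (0.68 ± 0.14), with 3 of 3 red cell markers called. In liver 0 of 4 Kupffer cell markers and 0 of 4 T and NK cell markers were called. Their part in the slopes was not tested.

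In hypothalamus a few mice stood far above the rest. Usp18 had a median of 1.74 CPM over 77 libraries and a range from 0.51 to 10.2 CPM, so that the highest was 5.85 times the median. Over the members this ratio ran from 2.43 (Rsad2) to 7.52 (Isg15) in hypothalamus, while in liver it ran from 1.70 (Ifi44) to 2.92 (Ifit1). The highest library, ZT9 replicate 6, had 27.8 CPM of Ifit1 against a median of 5.22, 65.5 of Ifit3 against 13.8 and 10.5 of Isg15 against 1.40. It was the highest for 7 of the 9 members and among the top 4 for all 9.

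Next in Usp18 came ZT21 replicate 2 (6.45 CPM), ZT18 replicate 4 (5.75 CPM) and ZT15 replicate 3 (3.94 CPM), from other mice and other times. They were among the top 4 libraries for 9, 8 and 4 of the members. In all 4 libraries each of the 9 members was above its hypothalamus median. Depth was ordinary, from 31.6 to 36.4 M, but Gm42418 took 15.9% of the counts in ZT18 replicate 4. The summed T and NK cell markers were at 0.40 to 1.62 CPM in these 4, within a range of 0.029 to 2.12 CPM over the tissue. The 1.62 CPM of ZT18 replicate 4 was the highest of its ZT group, whose median was 0.398 CPM. That library was also the highest of its ZT group in summed red cell markers (240 CPM, median 38.4). It was the highest of the whole tissue in summed neutrophil (8.85 CPM, tissue median 0.77) and endothelial markers (167 CPM, tissue median 117). The same held for summed B cell markers (2.19 CPM, tissue median 0.55). Summed microglia markers were at 169 to 208 CPM, within 140 to 212 CPM, and summed interferon ligand genes at 0.12 to 0.25 CPM, within 0 to 0.26 CPM. The part of these cells in the high levels was not tested.

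In other tissues the same mice were seldom among the highest. In cortex none of the 9 members of these 4 mice was among the top 4 libraries, and in liver only Irf7 of the mouse of ZT15 replicate 3 was, at rank 2. That mouse was above the cortex median for 8 of 9 members and above the liver median for 5. The mouse of ZT18 replicate 4 was above the cortex median for 5 members. The mouse with the highest hypothalamus library had 0.97 CPM of Usp18 in cortex, at rank 38 of 78, and was at rank 26 of 77 in liver. Only 1 of these mice had a striatum library, in which 0 of 9 members were among the top 4. The liver of the mouse of ZT18 replicate 4 is the library with 62.3% Gm42418.

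**Figure D4:**
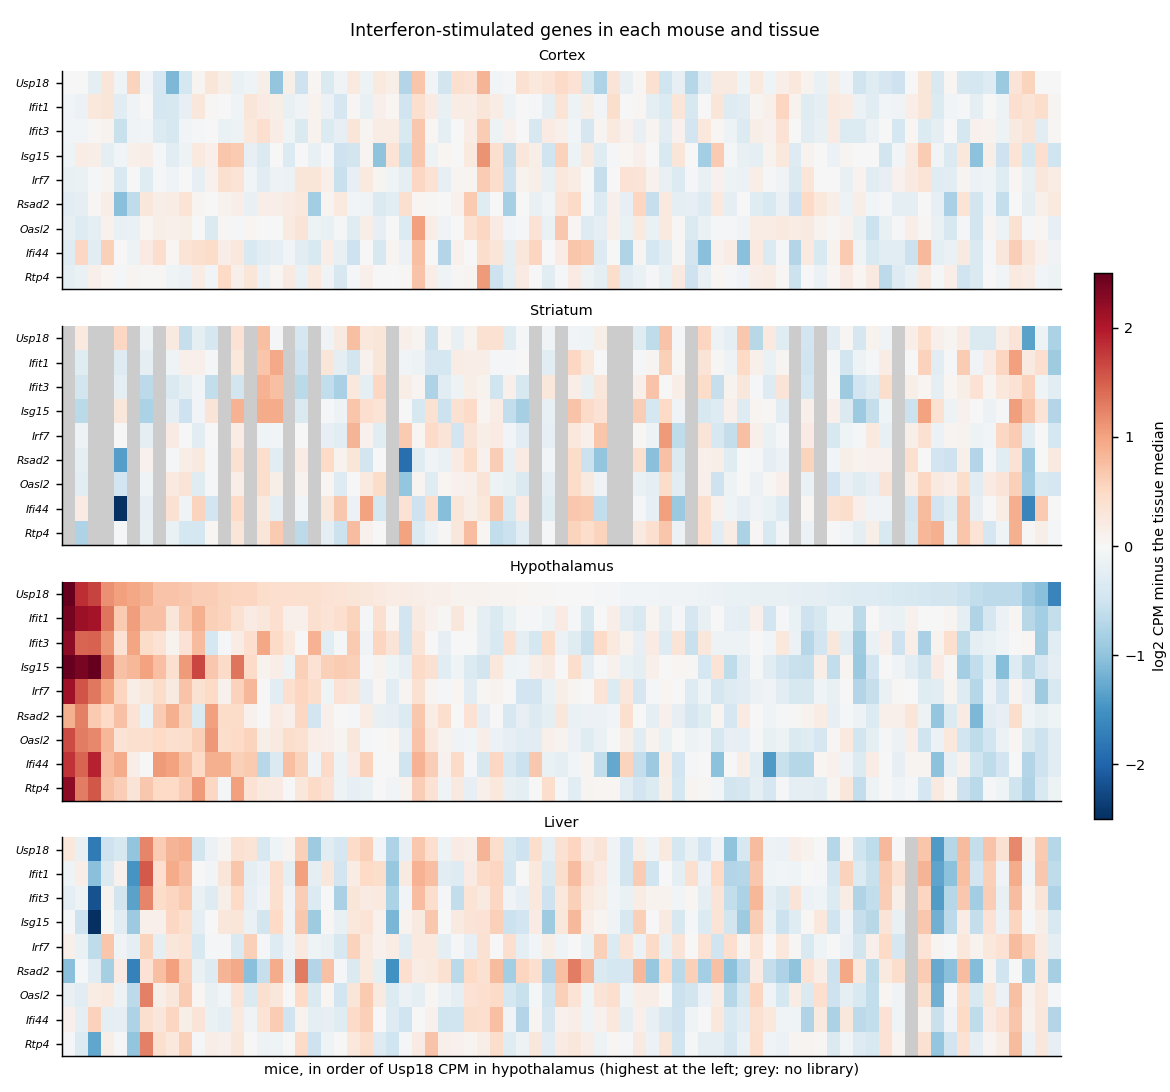
Log2 TMM-scaled CPM of each gene minus its tissue median (colour) in every mouse, one panel per tissue, with the mice of all panels in order of Usp18 in hypothalamus and grey where a mouse had no library. The 4 mice at the left are above the hypothalamus median for all 9 members, and in cortex none of their values is among the 4 highest libraries.

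Whether a mouse with a high level in one tissue also had it in another was tested in 12 ordered pairs of tissues. Each gene in one tissue was regressed on the mean log2 CPM of the 9 members in another tissue of the same mouse, with time point as a factor. In each of the 12, 0 of 9 members were called by edgeR, and at most 2 had an unadjusted p under 0.05. The smallest was 0.000851, for Ifi44 in cortex against liver (slope 0.60 ± 0.17, adjusted p 0.80). All 9 slopes were positive for cortex against liver, liver against cortex and liver against striatum. For hypothalamus against striatum and against liver all 9 were negative, and the other pairs were mixed. Within a pair the 9 share the same regressor and are not independent. Of all genes 0.0% were called in 11 of the 12, and 0.173% for liver against the level in hypothalamus. For Usp18 alone, correlations of residuals within time points were computed in 6 pairs of tissues over 58 to 77 mice. Pearson's r ran from -0.12 (cortex and striatum) to 0.29 (striatum and hypothalamus), and Spearman's rho from -0.13 to 0.13. The smallest permutation p for Pearson's r was 0.077, or 0.462 after Benjamini-Hochberg adjustment over the 6 pairs. The r of striatum and hypothalamus was 0.18 without the 2 mice farthest from the median. Without the libraries that stood apart it was 0.37 (55 mice, permutation p 0.0109, adjusted p 0.0651), with a rho of 0.20.

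Levels were compared between genes and tissues per gene length, as the authors' FPKM (fragments per kilobase of gene model, scaled to library size). In liver, medians were 7.95 FPKM for Isg15, 6.96 for Irf7, 5.22 for Rtp4, 4.19 for Ifit3, 2.24 for Ifit1, 2.07 for Usp18, 1.78 for Rsad2, 0.66 for Oasl2 and 0.38 for Ifi44. In cortex the order was another, with Ifit3 first at 3.51 FPKM, then Isg15 at 1.43, Ifit1 at 0.99, Rtp4 at 0.99, Oasl2 at 0.55, Irf7 at 0.495, Rsad2 at 0.45, Usp18 at 0.35 and Ifi44 at 0.11. Ifit1 and Rtp4 do not differ beyond their spread there (SD 0.18 and 0.21), and neither do Irf7 and Rsad2 (SD 0.095 and 0.10). In hypothalamus Ifit3 was at a median of 8.07 FPKM, Ifit1 at 1.98, Isg15 at 1.86, Oasl2 at 1.63 and Rtp4 at 1.58, and Ifi44 was lowest at 0.15. In striatum the medians were 4.99 for Ifit3, 1.93 for Isg15, 1.27 for Rtp4, 1.07 for Ifit1, 0.81 for Oasl2 and 0.12 for Ifi44.

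Of the 9, Irf7 showed the widest gap between liver and cortex. It was at 0.33 to 0.82 FPKM in the cortex libraries. Its medians were 0.54 FPKM in striatum, 0.78 in hypothalamus and 6.96 in liver. In the test with each mouse as a block, liver exceeded cortex by a log2 difference of 4.76 ± 0.053 for Irf7, 3.50 ± 0.083 for Usp18 and 3.34 ± 0.071 for Isg15. All 9 members were called higher in liver than in cortex and in liver than in striatum, where 42.5% and 41.4% of genes were called higher. Against hypothalamus 7 were higher, Oasl2 was lower (-0.23 ± 0.067, adjusted p 0.000875) and Ifit3 was not called (0.15 ± 0.094, adjusted p 0.119), where 42.3% of genes were called higher and 53.1% lower.

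These differences depend on how liver and brain are scaled to each other. TMM put the median of all genes at -0.30 for liver against cortex, and scaling by library totals alone put it at -1.23. With library totals, the liver difference to cortex was 3.82 for Irf7, 2.57 for Usp18, 0.29 for Ifit3 and 0.25 for Oasl2, with all 9 still called higher. Against striatum 7 were then higher and Ifit3 (-0.18) and Oasl2 (-0.25) were called lower, against 0.87 and 0.81 with TMM. Against hypothalamus Ifit3 was then called lower (-0.97), Oasl2 lower (-1.36), and Ifit1 was no longer called (0.15, adjusted p 0.154).

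Among brain tissues, hypothalamus exceeded cortex for all 9 members, where 47.0% of genes were called higher, with log2 differences from 0.38 ± 0.053 (Rsad2) to 1.45 ± 0.056 (Oasl2). Against striatum 6 members were higher in hypothalamus, where 35.4% of genes were, and Isg15, Ifi44 and Rtp4 were not called. With library totals alone Ifi44 (0.29, adjusted p 0.0207) and Rtp4 (0.30, adjusted p 0.00155) were called higher as well. Without the 4 hypothalamus libraries highest in Usp18, Isg15 was lower there than in striatum (-0.22, adjusted p 0.0360). Striatum exceeded cortex for 5 members, where 44.7% of genes were called higher, led by Oasl2 (0.51 ± 0.049) and Ifit3 (0.49 ± 0.049). Usp18 was one of the 5, with 0.18 ± 0.083 and adjusted p 0.0476, and its adjusted p was 0.114 without the libraries that stood apart.

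**Figure D5:**
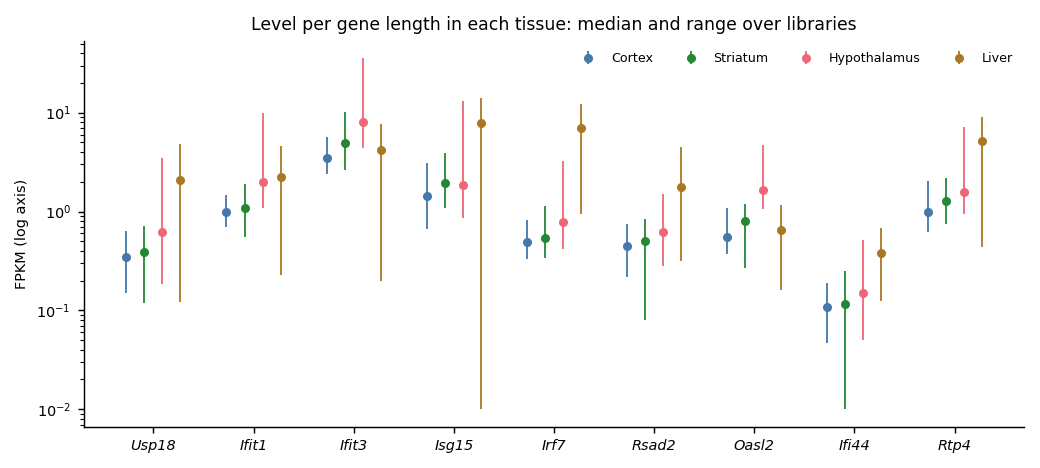
Level per gene length in FPKM (y axis, log scale) of each gene in 4 tissues, with points for the median and lines from the lowest to the highest library. Values of 0, in 1 liver library for Isg15 and in striatum for Ifi44, are drawn at 0.01, and the median of Irf7 in liver lies above its highest library in every brain tissue.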

How the data were processed

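The deposited files hold, for each tissue, a table of raw counts per gene and a table of FPKM values, both made by the authors from mRNA libraries. Per the submitters' processing notes, STAR (2.7.3a) and HTSeq (0.10.0) were among the tools, with GRCm38 or mm10 as the build. The sources used here do not give the annotation release, the strand setting or any filter. The authors' FPKM values were used only for levels between genes. Every column was mapped to a library by its name (0 value columns had no sample), and 79 mouse codes in the library names linked tissues of one animal. A striatum library whose code lacks 1 letter of another mouse's code, at the same time point, was kept as its own mouse, so 1 pair may be unlinked. Of 48795 gene identifiers, 48349 matched a symbol, and positions came from GENCODE release M21.

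Counts were analysed in R 4.3.3 with edgeR 4.0.16: TMM scaling, a low-count filter by ZT group, and the quasi-likelihood test with Benjamini-Hochberg adjustment over all genes tested, called under 0.05. Rhythms used a cosine and sine of 24 h over ZT. Their SE are for the log2 peak-to-trough ratio. Comparisons between tissues used mice with both tissues, with the mouse as a block, and the trend of dispersion was estimated there from every 8th gene. Slopes on Usp18 used log2 CPM with a prior count of 2 and time point as a factor. Correlations used 100000 permutations (Python 3.11.15, scipy 1.17.1), two-sided. The fits were tested on simulated data with known changes. Total counts of 11.7 to 50.01 M set the precision; the spread over mice enters the SE.

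Alternatives were DESeq2 1.42.0 (size factors and likelihood-ratio test), no low-count filter, ZT as a factor, the first cycle alone, the replicate block, the L code of the library names, Isg15 as the index, no mouse block, and leaving out libraries. The named genes were the 9 members, at most 4 called genes of each list with the smallest adjusted p per tissue, and the 5 genes with the smallest p and a positive slope on Usp18. The interferon ligand genes, Ifnar1, Ifnar2 and, in liver, Ifit3b were named outside this rule, after their values were seen. The members and lists were chosen with earlier results of these data known. Some genes of these lists are not reported here.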

Additional observations from a re-analysis of the deposited data

Results flagged for a closer look

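Each gene was looked at in each ZT group of 4 to 10 libraries, 126 groups in all, for a highest or lowest library set far from the others by Dixon's test. Chance flags about 1 in 20 groups where values are normal and groups independent, but here the 9 genes share the same libraries. In all, 24 values were found, all of them the highest of their group. Groups of more than 10 libraries were not looked at. Hypothalamus ZT9, with 11, was one of these, so its replicate 6, the library highest in Usp18, could not be flagged. The values are in TMM-scaled CPM.

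Hypothalamus ZT18 replicate 4 gave 8 of the 24. It had 5.75 CPM of Usp18 against 1.26 to 1.67 in the other libraries of its group, 22.2 of Ifit1 against 4.25 to 5.28, and 38.5 of Ifit3 against 12.3 to 16.9. It had 8.64 CPM of Isg15 against 0.88 to 1.62, 7.51 of Irf7 against 1.99 to 3.63, and 23.9 of Oasl2 against 8.71 to 11.6. For Ifi44 it had 3.63 CPM against 0.42 to 1.37, and for Rtp4 10.02 against 2.43 to 3.96. This library also held 15.9% Gm42418, and the part of that in these values was not tested. Hypothalamus ZT21 replicate 2 gave 5. It had 6.45 CPM of Usp18 against 0.51 to 2.71, 23.1 of Ifit1 against 3.31 to 9.66, and 8.93 of Irf7 against 1.77 to 3.87. It had 6.53 CPM of Rsad2 against 2.09 to 3.09 and 2.59 of Ifi44 against 0.61 to 1.30.

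Striatum ZT9 replicate 9 gave 4, at 5.63 CPM of Ifit1 against 2.45 to 4.05, 3.01 of Isg15 against 0.97 to 1.503, 5.06 of Rtp4 against 2.01 to 2.93, and 1.36 of Ifi44 against 0.47 to 0.80. Striatum ZT21 replicate 3, the library that held the cerebellar marker Gabra6, was at 3.36 CPM of Irf7 against 1.44 to 1.89 and 5.21 of Oasl2 against 3.88 to 4.28. Striatum ZT0 replicate 9 was at 2.94 CPM of Isg15 against 1.10 to 2.01, and striatum ZT18 replicate 3 at 5.05 of Rtp4 against 2.68 to 3.07. In liver, ZT15 replicate 3 was at 41.4 CPM of Irf7 against 22 to 29.1 and 6.05 of Isg15 against 2.67 to 3.93. Liver ZT18 replicate 4, the library with 62.3% Gm42418, was at 3.56 CPM of Ifi44 against 1.35 to 2.02.

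The rhythm of a gene differed between tissues in 27 of 54 interaction tests by edgeR's quasi-likelihood test, all of them between liver and a brain tissue. The adjusted p between liver and cortex was 1.877e-10 for Usp18, 5.779e-12 for Ifit1, 1.683e-11 for Ifit3, 0.000252 for Isg15, 4.815e-06 for Irf7, 4.839e-10 for Rsad2, 0.0242 for Oasl2, 0.000403 for Ifi44 and 2.251e-06 for Rtp4. Between liver and striatum it was 9.554e-06 for Usp18, 5.642e-05 for Ifit1, 4.349e-08 for Ifit3, 0.00602 for Isg15, 0.0029 for Irf7, 5.014e-06 for Rsad2, 0.0209 for Oasl2, 0.0168 for Ifi44 and 0.0114 for Rtp4. Between liver and hypothalamus it was 2.486e-05 for Usp18, 5.611e-07 for Ifit1, 3.722e-10 for Ifit3, 0.00057 for Isg15, 0.0387 for Irf7, 1.109e-08 for Rsad2, 0.000131 for Oasl2, 0.000872 for Ifi44 and 0.000621 for Rtp4. The sizes stand with the fitted ratios of each tissue in the report.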

How the results depend on the processing

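Over all alternatives run, 145 counts of called members were within 1.5 times the reported count and 11 were not. All 9 members were called rhythmic in liver under each of the 10 settings run there. In cortex, where 6 were called, 3 were with ZT as a factor and 3 in the first cycle alone. In striatum, where 1 was called, DESeq2's likelihood-ratio test called 2, and leaving out each ZT15 or ZT18 library in turn called 1 each time. In hypothalamus, where 1 was called, 3 were called without the library highest in Usp18, 3 without the 4 highest and 2 with library totals in place of TMM. Beside Ifit3 these were Ifit1 and Isg15 without the highest library, but Rsad2 and Ifi44 without the 4 highest. The replicate block called 2 in hypothalamus, adding Rsad2 (adjusted p 0.0453), and lost Irf7 in cortex (adjusted p 0.0772). The replicate numbers mark different mice at each ZT. Same-numbered libraries of different ZT groups deviated from their group means with correlations from -0.844 to 0.859, medians 0.0141 (liver) to 0.133 (hypothalamus). Libraries of different numbers had medians of -0.00491 in liver and -0.00898 in hypothalamus. In hypothalamus 18 of 77 libraries correlated best with one of their own number, and in liver 10 of 77. The source of this likeness was not tested. Between cycles in cortex, 0 were called without a low-count filter and 0 with the replicate block (Rsad2, adjusted p 0.0767), against 1, and the block left 0 called in the other tissues. For movement with Usp18 in striatum, 5 were called with Isg15 as the index and 1 without the library highest in Usp18, against 0. Of the values of single members under alternatives, 1153 kept their direction and call, 20 gained a call, 14 lost one and 3 reversed. Those 3 came with library totals alone: liver against striatum -0.18 for Ifit3 and -0.25 for Oasl2, and liver against hypothalamus -0.97 for Ifit3. Fitted ratios of rhythms have no sign, so those values could not reverse, and peak times were not compared. In hypothalamus the fitted peak of Usp18, which was not called, moved from ZT18.4 to ZT3.12 without the 4 libraries highest in Usp18. The cause of these changes was not tested. Leaving out the libraries highest in Usp18, scaling by library totals and the block between cycles were chosen after seeing the data. Low counts limit the brain values, where Ifi44 reached 0 in 1 striatum library.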
